A study of Mus musculus with 4 samples.

Results

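Chaperone and heat shock protein genes were compared between soleus muscle of HSL-null and wildtype mice. Members were the genes whose symbol in the array's annotation starts with Hspa, Hspb, Hspd, Hspe, Hsph, Hsp90, Dnaj or Cct and a digit, with Cryab, Calr, Canx, Pdia3, Pdia4, Pdia6, Stip1 and Tcp1 added and Hspbp1 left out. This gave 62 of the 8251 genes with a symbol of their own on the array, measured by 89 of its 12488 probe sets, and each gene was represented by its brightest probe set. The soleus is a slow-twitch calf muscle. HSL-null mice lack hormone-sensitive lipase, the product of Lipe. Both genotypes were female mice aged 6 months, muscle was pooled from 5 mice per genotype, and each pool was measured on 2 arrays that the labels call technical duplicates. The labels give neither the strain nor the construction of the null allele. A single pool per genotype allows no test across animals, and every error below comes from the duplicate arrays.

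Chaperones bind unfolded or partly folded proteins and keep them from aggregating. Hsp70 proteins hold short exposed stretches of a client in a cycle driven by ATP, J-domain proteins (the Dnaj genes) bring them their clients and start ATP hydrolysis, and Hsp110 proteins exchange the nucleotide. Small heat shock proteins act without ATP and are abundant in slow and oxidative muscle, where they guard the sarcomere. The CCT ring folds actin and tubulin, Hsp60 and Hsp10 fold proteins inside mitochondria, and BiP, GRP94, the calnexin pair and the disulphide isomerases fold secreted and membrane proteins in the endoplasmic reticulum.

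Heat shock factor binds inverted repeats of the bases GAA, the heat shock element, and the unfolded protein response acts through the ER stress element. Upstream stretches with heat shock element letters are shown for Hspa1a, Hspa1b, Hspd1 and Hspe1 only. Such letters also lie upstream of the start sites of Dnajb6, Hsph1, Hspb1, Cct2, Cct5, Dnaja1, Dnajb4 and Dnajc10. Stretches with the ER stress element are shown for every member found to carry it. Windows from 250 bases before to 50 after a start site came from RefSeq (GRCm38.p6), and 53 of 62 members had one. The stretches of Hspa1a and Hspa1b, which had the lowest differences of all members above the filter, hold 1 pair of inverted repeats, GAANNTTC, in capitals. The stretch between Hspd1 and Hspe1, neighbours that are read in opposite directions, holds 4 repeats in a row and is shown as read toward each gene, again with the repeats in capitals.

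Hspa1a (chr17:34972157-34972306, minus strand, -150 to -1): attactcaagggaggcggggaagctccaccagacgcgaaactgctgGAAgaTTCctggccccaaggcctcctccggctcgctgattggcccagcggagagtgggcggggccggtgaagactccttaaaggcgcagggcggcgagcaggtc
Hspa1b (chr17:34959239-34959388, minus strand, -150 to -1): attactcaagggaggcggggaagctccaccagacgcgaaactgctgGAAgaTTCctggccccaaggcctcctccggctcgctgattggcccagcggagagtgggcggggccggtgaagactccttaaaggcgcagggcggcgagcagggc
Hspd1 (chr1:55088039-55088096, minus strand, -164 to -107): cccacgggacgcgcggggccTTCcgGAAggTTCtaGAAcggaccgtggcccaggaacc
Hspe1 (chr1:55088039-55088096, plus strand, -109 to -52): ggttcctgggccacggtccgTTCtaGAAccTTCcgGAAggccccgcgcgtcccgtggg

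The 250 bases before the start sites of Hspa1a and Hspa1b were identical at 247 positions (98.8%). Windows were searched for GAANNTTC and TTCNNGAA, each its own reverse complement, and for the longer GAANNTTCNNGAA and TTCNNGAANNTTC, which are each other's reverse complement and contain the shorter letters. The longer motif was found in the windows of 4 of 53 members (Hspd1, Hspe1, Hsph1 and Dnajb6, 7.55%), against 179 of 27025 genes in all (0.662%). The shorter motif was found for 14 of 53 members (26.4%) and for 4587 of all genes (17.0%). Hspd1 and Hspe1 share the same stretch, and those of Hspa1a and Hspa1b are near identical. The matches of these members are therefore not independent, although each member is counted. A match describes letters in this window and is not a measurement of binding.

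The ER stress element, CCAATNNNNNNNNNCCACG or its reverse complement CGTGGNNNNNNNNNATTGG, was found in the windows of 6 of 12 endoplasmic reticulum members and of 0 of the other members, against 37 of 27025 genes (0.137%). Its fixed letters are in capitals, with the bases around them.

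Hspa5 (chr2:34772005-34772063, plus strand, -85 to -27): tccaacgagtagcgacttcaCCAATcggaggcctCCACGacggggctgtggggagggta
Hsp90b1 (chr10:86705513-86705676, minus strand, -232 to -69): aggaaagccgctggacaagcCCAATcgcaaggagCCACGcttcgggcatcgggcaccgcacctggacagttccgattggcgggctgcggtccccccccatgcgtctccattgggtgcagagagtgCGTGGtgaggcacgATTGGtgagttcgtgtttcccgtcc
Calr (chr8:84847055-84847113, minus strand, -182 to -124): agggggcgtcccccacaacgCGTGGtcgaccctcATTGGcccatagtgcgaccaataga
Canx (chr11:50325780-50325838, minus strand, -165 to -107): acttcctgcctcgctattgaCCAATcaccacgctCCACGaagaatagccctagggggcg
Pdia6 (chr12:17266471-17266529, plus strand, -118 to -60): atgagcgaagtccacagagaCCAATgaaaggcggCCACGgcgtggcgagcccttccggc
Dnajc3 (chr14:118937807-118937865, plus strand, -125 to -67): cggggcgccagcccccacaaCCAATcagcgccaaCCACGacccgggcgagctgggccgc

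Across the family, no member differed by as much as 1.5-fold on every array pair, and lower levels in HSL-null were more frequent than higher ones. Values are scaled linear intensities, set to a floor of 5.7 and compared as log2 differences, HSL-null minus wildtype, and 57 members had a mean of at least 27.7 (the median probe set of the array), here called the filter. Of these 57, 0 were separated, meaning at least 1.5-fold apart in the same direction on each of the 4 pairings of an HSL-null with a wildtype array, against 0.454% of all 4851 genes above this filter. Both HSL-null arrays lay below both wildtype arrays for 21 members (36.8%), where 21.5% of all genes did, and above them for 7 members (12.3%), where 19.7% of all genes did. The remaining 29 members overlapped. With 3 other scalings of the arrays 15 to 18 members (26.3 to 31.6%) lay wholly below, where 18.9 to 21.0% of all genes did, and 8 (14.0%) wholly above, where 20.3 to 22.1% did. The median difference was -0.055 over the 57 members and -0.0041 over all genes above the filter.

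**Figure D1:**
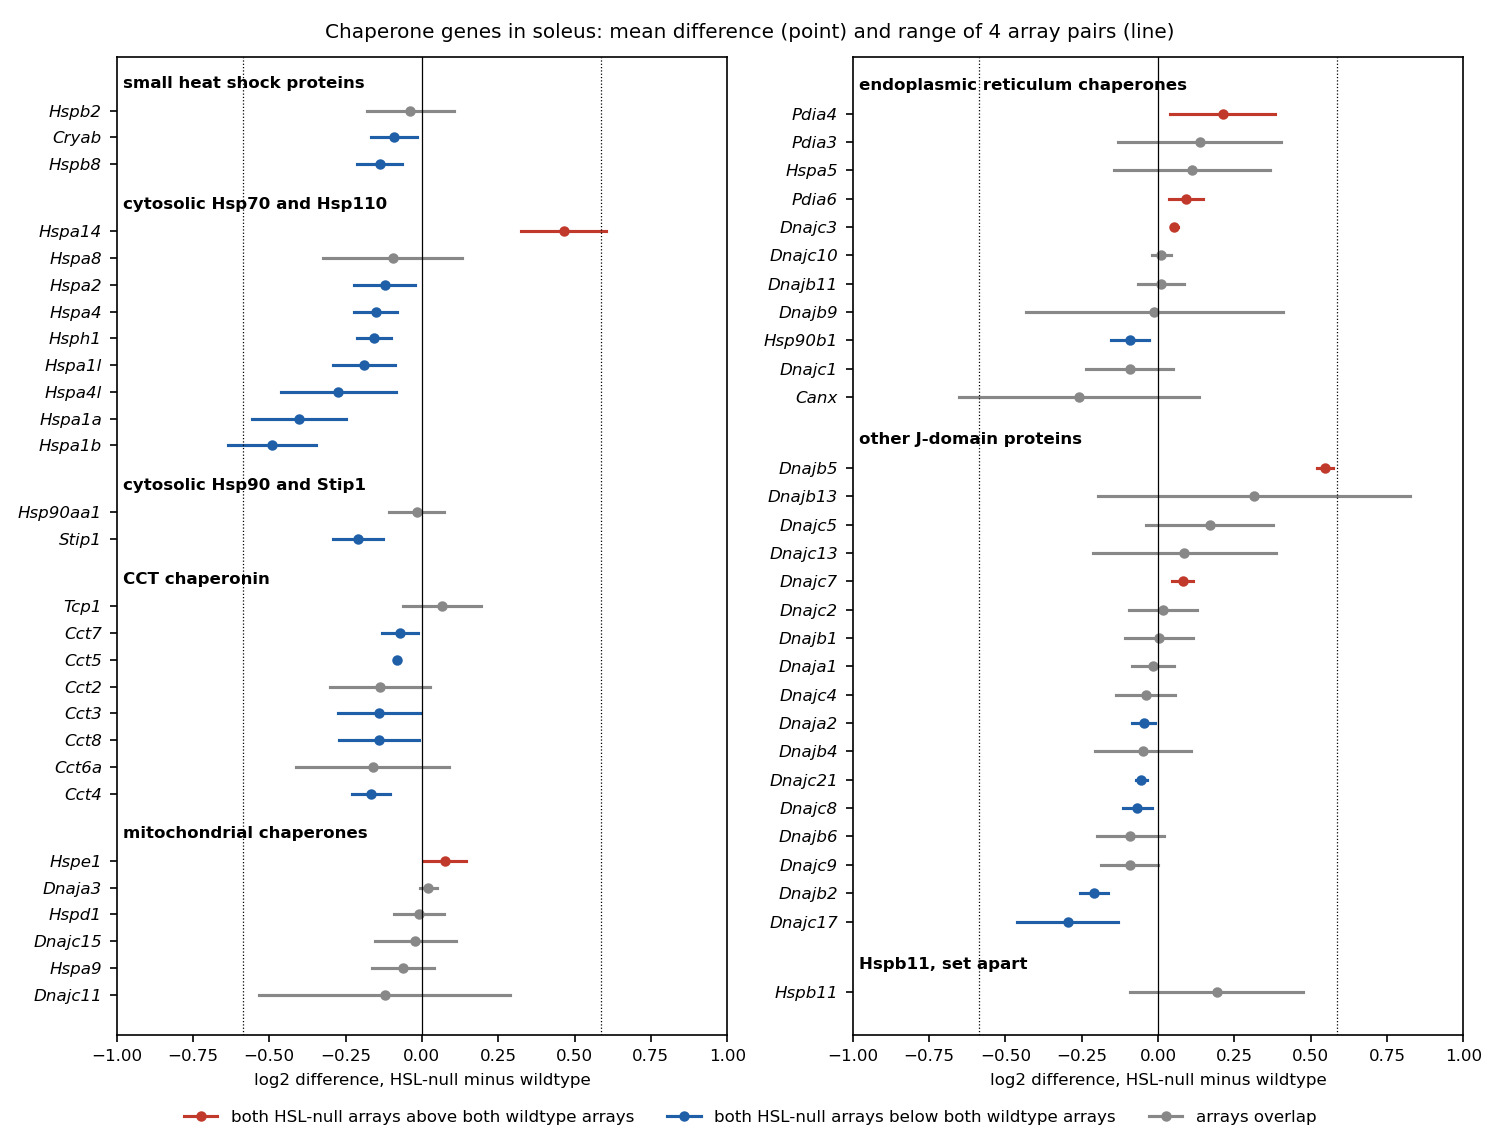
Log2 difference, HSL-null minus wildtype, of the 57 members above the filter by class; points are means, lines span the 4 array pairs and dotted lines mark 1.5-fold. Blue members (21) were lower and red members (7) higher on both HSL-null arrays than on both wildtype arrays, and no line lies wholly beyond 1.5-fold.

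The duplicates set the scale for these differences. On wildtype array 2, 40 of the 57 members measured lower than on wildtype array 1, with a median difference of -0.089, which is larger than the median difference between the genotypes. Between the HSL-null duplicates the median difference was -0.0084. Without wildtype array 1 the median difference between genotypes was -0.0052, and without wildtype array 2 it was -0.073. The shift of the family as a whole was therefore smaller than the difference between wildtype duplicates. The family median lay at -0.074 and -0.056 on the HSL-null arrays, below both wildtype arrays (0.044 and -0.044). These are medians of log2 values minus each gene's wildtype mean. Class by class the picture differed.

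The targeted gene and the tissue were checked on the same arrays. Lipe intensity was 71.4 and 70.2 in wildtype against 16.2 and 19.4 in HSL-null. Slow fibre markers summed to 42631 to 44707 in wildtype and 43449 to 45237 in HSL-null, and none of the 13 measured was at 0. Of these 13, 4 lay higher without overlap and 3 (Csrp3, Ankrd2 and Myl6b) lower. Other marker sums moved with genotype. Fast fibre markers (13 measured) summed to 26352 to 28336 in wildtype and 31544 to 32293 in HSL-null, white adipocyte markers (9) to 1420 to 1510 and 897 to 994, and fibroblast and matrix markers (9) to 4073 to 4081 and 4638 to 4791. Of 12 fast fibre markers above the filter 6 lay higher without overlap and 0 lower, and Myh4, Actn3 and Pvalb were separated. Myh4 measured 279.2 and 277.3 in wildtype and 1897.1 and 1781.6 in HSL-null. The adipocyte list includes Lipe itself. Of its 7 genes above the filter 6, Lipe among them, lay lower without overlap, and Lep overlapped. Scd1, its brightest gene, measured 736.8 and 835.4 in wildtype and 521.5 and 420.7 in HSL-null. Endothelial markers (9) summed to 1115 to 1165 and 1086 to 1100, and the sums of macrophage and of smooth muscle markers overlapped between the pools. As a sign of RNA quality, beta-actin control probes gave a 3′ to 5′ ratio of 0.697 ± 0.0126 for wildtype (SD, n = 2 arrays) and 0.819 ± 0.00532 for HSL-null, against 0.941 ± 0.0203 and 0.917 ± 0.00716 for Gapdh. The part of cell make-up and RNA quality in the chaperone values was not tested, and in whole muscle fewer cells of a type and less RNA per cell cannot be told apart.

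Most cytosolic Hsp70 and Hsp110 genes had lower levels without HSL. Of 9 members, all above the filter, 7 (77.8%) lay lower on both HSL-null arrays, where 21.5% of all genes did. Of the rest 1 (Hspa14) lay higher, as 19.7% of all genes did, and 1 (Hspa8) overlapped. Of the 7, 6 remained lower without overlap with median centring and with quantile normalization, and all 7 with cyclic loess. The class median was -0.16 (-0.22 to -0.087 over the 4 array pairs), beside -0.067 between wildtype duplicates and -0.061 between HSL-null duplicates. It stayed between -0.14 and -0.15 with the other scalings. Without wildtype array 1 it was -0.15, and without wildtype array 2 it was -0.23. The class is described by counts, and its members are not independent of each other.

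Hspa1b and Hspa1a, the heat-inducible Hsp70 genes, were the lowest of this class relative to wildtype. Hspa1b measured 240.5 and 266 in wildtype and 188.9 and 171.1 in HSL-null, which is 1.41-fold lower (-0.49 ± 0.10 on the log2 scale, where the error here and below is the standard error from the duplicates). Hspa1a measured 553.8 and 518.2 in wildtype and 376.4 and 436 in HSL-null, 1.32-fold lower (-0.40 ± 0.12). For both genes the HSL-null arrays lay clear of the wildtype arrays, and the nearest pair of arrays differed 1.27-fold for Hspa1b and 1.19-fold for Hspa1a. These genes are adjacent near-identical copies, so the probe sets may measure the same transcripts. Each is still counted as a member in the counts given here. The shown stretches lie upstream of the transcripts, and transcript or probe sequences were not compared. Hspa1l, the neighbouring gene known for its expression in testis, measured 488.4 and 460.8 in wildtype and 433.9 and 398.8 in HSL-null (-0.19 ± 0.074). Its close similarity to the other copies makes its own level uncertain. Without these 3 genes, left out as a check added once the values were known, the class median was -0.14, with 4 of 6 members lower without overlap, and 18 rather than 21 members of the whole family were.

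The Hsp110 genes and other Hsp70 genes showed smaller differences in the same direction. Hsph1, which encodes Hsp105, a nucleotide exchange factor of Hsp70, measured 367 and 350.4 in wildtype and 316.5 and 326.5 in HSL-null (-0.16 ± 0.040). Hspa4, another Hsp110 gene, measured 456.5 and 429.3 in wildtype and 405.3 and 391.7 in HSL-null (-0.15 ± 0.051). It was measured by 5 probe sets above the filter, and 4 of them lay lower without overlap, while the dimmest, at 0.086 ± 0.20, overlapped. Hspa4l, its relative, differed by -0.27 ± 0.16, with levels between 34 and 46.8 that lie close to the filter. Hspa2, the Hsp70 of the male germ line, was dim too (39.9 to 46.5) and differed by -0.12 ± 0.072, and its arrays overlapped with median centring and with quantile normalization.

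The constitutive Hsp70 overlapped between the pools. Hspa8, which encodes Hsc70, measured 1735.9 and 1405.2 in wildtype and 1388 and 1539.8 in HSL-null. The wildtype duplicates stood further apart than the genotype means, and the difference of -0.10 ± 0.17 changed sign without wildtype array 1 (0.057). Hspa14, a Hsp70 that works with ribosomes, was higher in HSL-null, at 33.6 and 32.2 against 22.1 and 25.7 in wildtype (0.46 ± 0.11). Its wildtype mean of 23.9 lies below the filter, which it passed through its HSL-null level. It is 1 of the 7 members counted as higher, and without it 6 were.

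**Figure D2:**
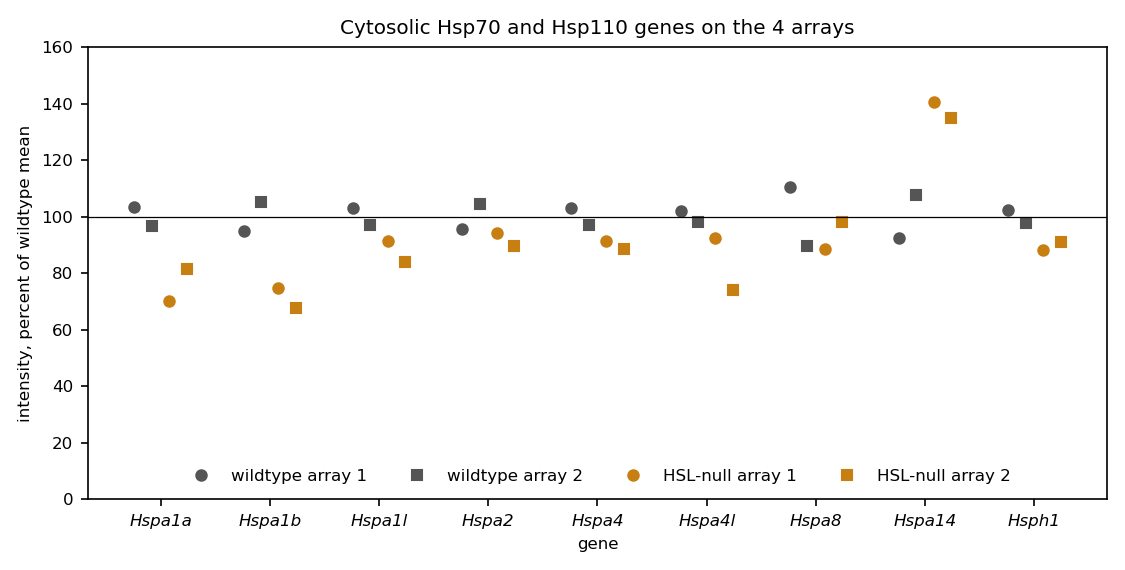
Intensity of the 9 cytosolic Hsp70 and Hsp110 genes on each array, as percent of the gene's wildtype mean (line at 100). Both HSL-null arrays lie below both wildtype arrays for 7 genes, overlap for Hspa8 and lie above for Hspa14.

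Hsp90 itself showed little difference, and its co-chaperone was lower. Hsp90aa1, the inducible cytosolic Hsp90, measured 347.6 and 331.3 in wildtype and 348.3 and 322.7 in HSL-null (-0.018 ± 0.065), and its sign turned with quantile normalization (0.0075). Stip1, the adaptor Hop that passes clients from Hsp70 to Hsp90, measured 203.3 and 185.8 in wildtype and 166.2 and 170.1 in HSL-null, 1.16-fold lower (-0.21 ± 0.067). Both HSL-null arrays stayed below both wildtype arrays for Stip1 under all 4 scalings. The other cytosolic Hsp90 gene, Hsp90ab1, was not analysed here.

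Subunits of the CCT chaperonin were also lower, by amounts close to the spread between the wildtype duplicates. Of 9 measured subunit genes 8 were above the filter, and 7 of these had a mean below wildtype. Without overlap 5 (62.5%) lay lower, where 21.5% of all genes did, and 0 higher, where 19.7% did. With median centring 2 (25%) lay lower without overlap, where 18.9% of all genes did, and with quantile normalization or loess 3. The class median was -0.14 (-0.23 to -0.035 over array pairs), and the wildtype duplicates differed by a class median of -0.12. Without wildtype array 1 the class median was -0.041.

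Among the subunits, the differences of Cct4 and Cct5 held under all 4 scalings. Cct4 measured 709.4 and 685.1 in wildtype and 637.3 and 604.9 in HSL-null (-0.17 ± 0.045). Cct5 measured 502.6 and 504.3 in wildtype and 473.2 and 478.5 in HSL-null (-0.081 ± 0.0084), and its other probe set was lower too (-0.17 ± 0.061). The difference of Cct5 was the smaller of the pair, but its duplicates were the closer. Cct8 (-0.14 ± 0.10) and Cct3 (-0.14 ± 0.11) were lower without overlap by a narrow margin, and their arrays overlapped with each of the other scalings. Cct7 differed by -0.071 ± 0.046. Tcp1, the alpha subunit of the same ring, measured 84 and 88.2 in wildtype and 96.1 and 84.5 in HSL-null, and its groups overlapped (0.066 ± 0.099).

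Small heat shock proteins differed by at most 1.1-fold on the brightest probe sets. Of 4 measured genes 3 were above the filter, 2 of them lower without overlap (1 with median centring) and 0 higher. Among all genes 21.5% lay lower and 19.7% higher. The class median of -0.092 (-0.17 to -0.028 over array pairs) was smaller than the class median between wildtype duplicates (-0.13). Hspb8, a partner of the co-chaperone Bag3 in clearing damaged sarcomere proteins, measured 1723.3 and 1575.3 in wildtype and 1506.5 and 1488.5 in HSL-null (-0.14 ± 0.065). It was lower without overlap under all 4 scalings, and its dimmer probe set differed more, at -0.56 ± 0.11 from 46.3 to 31.3. Cryab, the alpha-B crystallin that protects desmin and actin filaments, measured 1210.8 and 1099.2 in wildtype and 1078 and 1086.4 in HSL-null (-0.092 ± 0.070), and it overlapped with median centring. Hspb2, its neighbour in the genome, measured 2022.9 and 2180.5 in wildtype and 2174.9 and 1924.6 in HSL-null, with overlapping groups (-0.038 ± 0.10). Hspb1, which encodes Hsp25, had all 4 values between 0.6 and 4.4, below the floor, so that its probe set gave no measurement.

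Mitochondrial chaperones did not separate the pools. Of 6 members above the filter 1 (16.7%) lay higher without overlap, where 19.7% of all genes did, and 0 lower, where 21.5% did. The class median was -0.015 (-0.023 to 0.037 over array pairs). Its sign changed without wildtype array 1 (0.031). Hspd1, the mitochondrial Hsp60, measured 1524.8 and 1397.9 in wildtype and 1469.3 and 1432 in HSL-null (-0.0094 ± 0.065). Its co-chaperonin Hspe1, the Hsp10 that shares the shown stretch, measured 620.1 and 568.4 in wildtype and 623.1 and 628.5 in HSL-null (0.076 ± 0.063). Both HSL-null arrays of Hspe1 lay above the wildtype arrays, by a narrow margin, and overlapped with loess. Hspa9, the Hsp70 of the matrix known as mortalin, measured 1286.9 and 1162.4 in wildtype and 1149.2 and 1194.3 in HSL-null (-0.062 ± 0.078). The values of the other 3, Dnaja3, Dnajc11 and Dnajc15, overlapped between the pools, with differences between -0.12 and 0.021.

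Chaperones of the endoplasmic reticulum lay on both sides of 0. Of 12 members 11 were above the filter, 3 (27.3%) lay higher without overlap, 1 (9.09%) lower and 7 overlapped. All genes gave 19.7% higher and 21.5% lower. The class median was 0.011 (-0.046 to 0.065 over array pairs). Hspa5, which encodes the Hsp70 BiP, measured 899.3 and 720.6 in wildtype and 813.7 and 929.2 in HSL-null (0.11 ± 0.19). The HSL-null values of Hspa5 lay across the wildtype range, and the difference could not be told from 0 at this spread. Hsp90b1, the Hsp90 of this compartment known as GRP94, measured 398.4 and 370.9 in wildtype and 357.8 and 363.4 in HSL-null (-0.092 ± 0.053). It was lower without overlap under all 4 scalings, while Hspa5 overlapped under all 4. Both windows hold the ER stress element.

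The 3 members counted as higher in this compartment, by their brightest probe sets, differed by small amounts. Pdia4, a disulphide isomerase, measured 35 and 29.6 in wildtype and 36 and 38.6 in HSL-null (0.21 ± 0.13). Dnajc3, the inhibitor of eIF2alpha kinases also known as P58IPK, measured 66.1 and 65.5 in wildtype and 68.5 and 68.1 in HSL-null (0.054 ± 0.0078), and a dimmer probe set gave 0.23 ± 0.066. The duplicates of Dnajc3 were so close that a difference of 1.04-fold left no overlap. Pdia6, another disulphide isomerase, measured 132.9 and 139.3 in wildtype and 147.1 and 142.8 in HSL-null (0.091 ± 0.040) on its brightest probe set. The other Pdia6 probe sets were lower without overlap, at -0.12 ± 0.034 and -0.18 ± 0.040, so the direction of this gene depends on the probe set. It is counted as higher by the brightest. With the mean of all probe sets of a gene 2 members of the class lay higher and 2 lower without overlap. Calr, which encodes calreticulin, had values between 0.2 and 5.1, below the floor, and gave no measurement. Of the remaining members Canx, Dnajb9, Dnajb11, Dnajc1, Dnajc10 and Pdia3 overlapped, with differences between -0.26 and 0.14. Dnajc10 lay higher without overlap under each of the 3 other scalings (0.025 to 0.038), which then gave 4 higher members in this class.

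**Figure D3:**
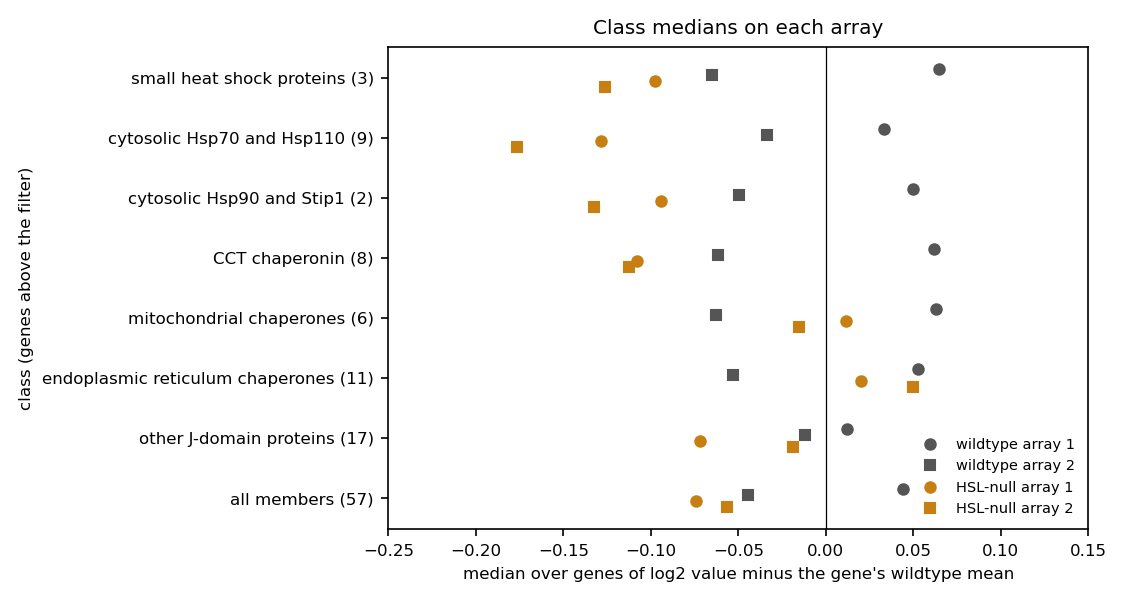
Class medians on each array, as log2 value minus the gene's wildtype mean, with the number of genes above the filter in parentheses. The HSL-null arrays lie at -0.13 and -0.18 for cytosolic Hsp70 and Hsp110, below both wildtype arrays (0.033 and -0.033). They also lie below both wildtype arrays for small heat shock proteins, Hsp90 and Stip1, CCT, other J-domain proteins and all members. For mitochondrial and endoplasmic reticulum chaperones they lie between the wildtype arrays.

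Among the other J-domain proteins Dnajb5 stood apart. Dnajb5, a co-chaperone of Hsp70 known in heart for binding class II histone deacetylases, measured 104.3 and 103.9 in wildtype and 149.7 and 154.5 in HSL-null, 1.46-fold higher (0.55 ± 0.023). The duplicates lay close together and the pools clear of each other. The nearest pair of arrays differed 1.44-fold, just under the 1.5-fold threshold. The difference lay between 0.55 and 0.57 under the 4 scalings and between 0.52 and 0.57 with each array left out. No other member that was higher in HSL-null reached this size.

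The remaining J-domain genes of this class differed little. Of its 19 members 17 were above the filter, 5 (29.4%) lay lower without overlap, 2 (11.8%) higher and 10 overlapped. All genes gave 21.5% lower and 19.7% higher. The class median of -0.041 turned to 0.015 without wildtype array 1. Dnajb2, a J-protein that sends clients to the proteasome, measured 221.4 and 232.5 in wildtype and 197.7 and 194.6 in HSL-null, 1.16-fold lower (-0.21 ± 0.037). Both HSL-null values of Dnajb2 lay clear of the wildtype values under all 4 scalings. Dnajc7, a co-chaperone with tetratricopeptide repeats that binds Hsp70 and Hsp90, measured 364 and 363.6 in wildtype and 394 and 375.6 in HSL-null (0.081 ± 0.035). Dnajc17 differed by -0.30 ± 0.15 but was dim. Its HSL-null mean of 25.1 lies below the filter, which it passed through its wildtype level. It is 1 of the 5 members of this class counted as lower, and 1 of the 21 of the whole family. Dnajc8 was lower on both of its probe sets (-0.068 ± 0.042 and -0.17 ± 0.0032).

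Dnajb6, which protects the Z-disc and is mutated in a limb-girdle muscular dystrophy, measured 607 and 534.4 in wildtype and 528.3 and 541.4 in HSL-null, with overlapping groups (-0.091 ± 0.094). Dnajb1, the main J-protein partner of inducible Hsp70 and itself a heat shock gene, measured 43.3 and 42.6 in wildtype and 40.2 and 46.1 in HSL-null (0.0034 ± 0.099). It is named with its values known, as a heat shock gene beside Hspa1a and Hspa1b, and it showed no difference beyond its spread. Hspb11, which encodes an intraflagellar transport protein and shares only its name with the small heat shock proteins, overlapped between the pools (0.19 ± 0.25).

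For 12 members more than 1 probe set was above the filter, and for 6 of these all probe sets had a difference of the same sign. The 6 were Canx, Cct3, Cct5, Dnajc3, Dnajc8 and Hspb8. Signs were mixed for Dnajb6, Dnajb9, Dnajc2, Hspa4, Hspb2 and Pdia6, and Pdia6 was the gene among them whose probe sets gave opposite directions without overlap.

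**Figure D4:**
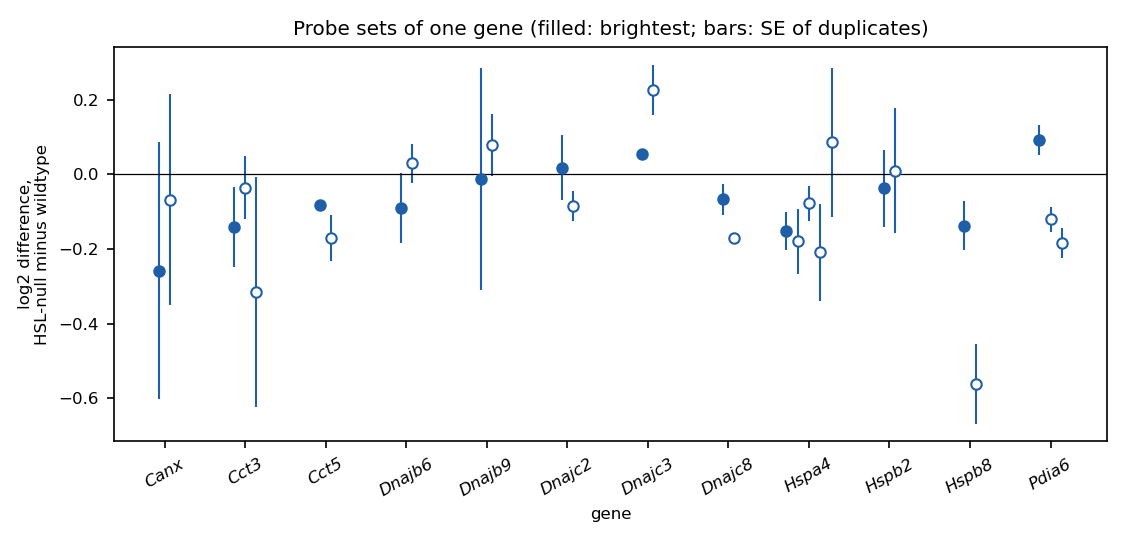
Log2 difference of each probe set above the filter for the 12 members with more than 1; filled points stand for the gene and bars are standard errors from the duplicates. Probe sets of Hspa4 lie below 0 except the dimmest (0.086), whereas those of Pdia6 lie on both sides (0.091, -0.12 and -0.18).

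Co-chaperones, mitochondrial ones included, and heat shock factors outside the family gave a mixed picture, led by an immunophilin pair. Of 35 listed genes 26 were measured and 22 were above the filter, 7 of them lower without overlap and 4 higher, with a median of -0.030. Among all genes above the filter, 21.5% lay lower without overlap and 19.7% higher. Fkbp5, an immunophilin of Hsp90 complexes, measured 260.6 and 241.9 in wildtype and 158.4 and 150.8 in HSL-null (-0.70 ± 0.064) and was the only listed gene of the 22 separated by 1.5-fold. Its relative Fkbp4 measured 703.3 and 730.4 in wildtype and 609.1 and 534.6 in HSL-null (-0.33 ± 0.10). Lower without overlap by less were Grpel1, a nucleotide exchange factor of mitochondrial Hsp70 (-0.13 ± 0.054), and Bag2, an exchange factor of cytosolic Hsp70 (-0.13 ± 0.041).

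Bag3, the partner of Hspb8, was lower too, at 1030.1 and 945 in wildtype and 895.2 and 917.8 in HSL-null (-0.12 ± 0.065), and is named with its values known. The 4 higher genes were the import receptor Tomm70a (0.17 ± 0.029), the prefoldin subunits Pfdn2 (0.16 ± 0.020) and Vbp1 (0.15 ± 0.053), which hand actin and tubulin to CCT, and the kinase co-chaperone Cdc37 (0.12 ± 0.032). These 2 prefoldin subunits lay higher in the pool in which 5 of 8 CCT subunits lay lower (2 of 8 with median centring). Hsf2, a heat shock factor, had all values below the floor, and Hsf1 was not analysed here.

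Other folding and stress genes of the endoplasmic reticulum had 23 of 30 listed genes measured and 19 above the filter. Of these 3 lay lower without overlap and 4 higher, 0 were separated, and the median was 0.025. Of all genes above the filter, 21.5% lay lower without overlap and 19.7% higher. Lower were Ddit3, the stress transcription factor CHOP (-0.24 ± 0.075), the sensor Atf6 (-0.20 ± 0.081) and the retrotranslocation protein Derl1 (-0.14 ± 0.098). Derl1 overlapped under each of the 3 other scalings, while Ddit3 and Atf6 were without overlap under all 4. Xbp1, another transcription factor of the response, measured 305.7 and 284.2 in wildtype and 284.8 and 315.6 in HSL-null and overlapped. Atf4, a further one, overlapped too (0.035 ± 0.053). Both are named with their values known. The 4 higher genes were Ppib (0.18 ± 0.14), which encodes cyclophilin B, Serpinh1 (0.16 ± 0.10), the collagen chaperone Hsp47, Creld2 (0.078 ± 0.026) and Uggt1 (0.078 ± 0.058). Ppib was higher by a narrow margin, and Uggt1 was without overlap under 2 of the 4 scalings. Ppib and Serpinh1 belong to the collagen pathway, as does P4hb, which overlapped (0.076 ± 0.81). Ppib and Serpinh1 were higher in the pool in which fibroblast and matrix markers summed to 4638 to 4791 rather than 4073 to 4081. The part of these cells was not tested.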

How the data were processed

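RNA of 1 soleus pool per genotype was measured on 2 arrays each. The deposited values are linear intensities for 12488 probe sets, scaled by the authors: the mean after trimming 2% at both ends was 100.0 on all 4 arrays. Software and background correction: not given in the sources used here. Names came from the platform annotation.

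Values were raised to at least the 25th percentile of the table (5.7) and taken to log2, control probe sets were left out, and genes at or above the filter (27.7, the 50th percentile) were counted. No p-value was computed. The number of arrays limits the precision: 2 duplicates measure array error, not variation between animals. Named were separated members and, per class, the 2 highest in level and up to 4 without overlap, 10 fixed genes where measured, and in other lists separated genes and up to 3 without overlap; exceptions are marked or given among all members of their kind. Members and lists were chosen with earlier results of these data known. The rule was tested on simulated data. Alternatives were median centring, quantile normalization, cyclic loess (limma 3.58.1, R 4.3.3), floor, filter, threshold, probe set choice, each array left out and pairing by number. Python 3.11.15 with numpy 2.4.6 and pandas 2.3.3 was used.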

Additional observations from a re-analysis of the deposited data

How the results depend on the processing

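Of the counts over all members and the class medians, those with another scaling, floor, filter or choice of probe set stayed within 1.5 times the main count or within the spread between array pairs, except the count of members higher without overlap, which was 4 rather than 7 with the filter at the 75th percentile, where fewer genes were counted. Counts within classes moved more. Lower without overlap were 2 or 3 rather than 5 CCT subunits with the other scalings and 1 rather than 2 small heat shock proteins with median centring. Of the endoplasmic reticulum chaperones 2 rather than 1 were lower with the mean of all probe sets, and 1 rather than 3 higher with the filter at the 75th percentile, which also left out Hspa14, the 1 higher cytosolic Hsp70 gene. At the lower fold threshold tried, 3 members were separated (Hspa1b, Hspa14 and Dnajb5), and at 2-fold 0. With an array left out each gene has fewer array pairs, and overlap is less frequent by construction. Then 0 to 1 members were separated (Dnajb13, without wildtype array 1), 11 to 16 lay higher and 25 to 34 lower without overlap. Class medians ranged from -0.16 to -0.073 for small heat shock proteins, -0.23 to -0.13 for cytosolic Hsp70 and Hsp110, -0.22 to -0.041 for CCT, -0.029 to 0.031 for mitochondrial chaperones, -0.015 to 0.057 for endoplasmic reticulum chaperones, -0.16 to -0.063 for cytosolic Hsp90 and Stip1 and -0.072 to 0.015 for the other J-domain proteins, and the median of all members from -0.074 to -0.0052. The arrays share replicate numbers, and deviations of same-numbered arrays correlated at r = -0.067 over 4851 genes. This gave no sign of pairing by number, but it cannot exclude that same-numbered arrays were processed together. With the replicate number as a block 0 members were separated, 9 lay higher and 23 lower, and the median of all members was -0.055. Without Hspa14, an alternative chosen after seeing the data, the cytosolic Hsp70 median was -0.17. Dim members such as Hspa14, Hspa4l and Dnajc17 lie close to the filter, where signal over background limits the comparison.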

Other observations

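Of the 5 members below the filter, Dnajb3, a J-domain gene known from testis, measured 11.5 and 21.7 in wildtype and 7.8 and 4.6 in HSL-null, and 1 of its arrays was below the floor. Cct6b and Dnajb8, also known from testis, measured 5.3 to 11.4 and 3.1 to 13. A pair of probe sets annotated to both Dnajc19, a J-protein of the mitochondrial import motor, and its pseudogene stood outside the family by the rule of a symbol of its own. The brighter measured 201.4 and 182.5 in wildtype and 207.2 and 243.2 in HSL-null (0.23 ± 0.14 on the log2 scale).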
